A study of Mus musculus with 4 samples.

Results

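The 39 genes described here encode synaptic adhesion molecules and synapse organizers of 11 families: neuroligins, the leucine-rich LRRTM, SLITRK, LRFN and FLRT proteins, CADM immunoglobulin proteins, LAR-type receptor phosphatases, teneurins, calsyntenins, C1q-like secreted proteins and 2 members of the IL-1 receptor accessory family. They were chosen by gene symbol, and all 39 had a row in each of the 4 libraries, out of 31735 gene rows that the 4 libraries shared. Rostral pons was taken from adult mice of 1 line, Cbln2-EGFP/Rpl10a (NIDA172), all untreated controls that carry the EGFP-tagged ribosomal protein L10a under the Cbln2 driver that the line's name gives. Tagged polysomes were captured with antibodies against EGFP (translating ribosome affinity purification, TRAP), and the RNA of this immunopurified (IP) fraction was sequenced. All 4 libraries form 1 group, so no condition was compared. The age beyond adult, the sex and any pooling of animals are not given in the labels, nor is whether replicates came from separate animals, and p-values measure only the spread between libraries, which may be technical. No unbound or total RNA was used here, so levels stand for the IP fraction and enrichment was not measured.

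Synaptic adhesion molecules span the cleft between an axon terminal and its target, and many of them start the assembly of a terminal or a receptor field when they meet their partner. Neurexins and LAR-type phosphatases are the main presynaptic hubs: neurexins bind neuroligins, some LRRTM proteins and, through cerebellins, GluD receptors, while LAR-type phosphatases bind SLITRK, IL1RAPL1 and some LRFN proteins. Teneurins and FLRT proteins meet the latrophilins, C1q-like proteins bind the adhesion receptor BAI3, and CADM proteins bind each other across the cleft. Which members a neuron makes is known to differ between cell types.

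The gene rows of a library summed to 12731825 and 15315942 counts in replicates 3 and 4 and to 21140265 and 15556918 counts in replicates 1 and 2, so that 1 count stood for 0.0473 to 0.0785 CPM (counts scaled to a library total of 1000000). Replicates 1 and 2 carry adjacent library numbers, as do replicates 3 and 4, and the tables of the pairs list different gene rows, 32657 in replicates 3 and 4 and 32531 in replicates 1 and 2. The row of the ribosomal RNA precursor Rn45s took 24.2% and 9.29% of the counts in replicates 3 and 4 and 1.68% and 1.61% in replicates 1 and 2, and CPM was computed with it in the total. Of the marker lists, the 7 neuronal markers were all at 1 CPM or more throughout and summed to 11066 and 11259.8 CPM in replicates 3 and 4 and 22515 and 20484 CPM in replicates 1 and 2. Most of that sum was Snap25, with 8131 and 6936 CPM in replicates 3 and 4 and 18576.5 and 15908 CPM in replicates 1 and 2, while Tubb3 had 219.8 and 241 CPM in replicates 3 and 4 and 69.1 and 50.01 CPM in replicates 1 and 2. The pair of glutamatergic markers summed to 324 to 501 CPM and the 3 GABAergic markers to 139 to 698 CPM, all at 1 CPM or more throughout. RNA of other cells was also present. With 6 of 7 markers each at 1 CPM or more throughout, the astrocyte list summed to 446 and 1999.7 CPM in replicates 3 and 4 and 1218 and 1428 CPM in replicates 1 and 2 and the oligodendrocyte list to 414 and 2390.0 CPM in replicates 3 and 4 and 1426 and 1729.8 CPM in replicates 1 and 2. The 5 precursor markers, all at 1 CPM or more, summed to 23.1 and 93.8 CPM in replicates 3 and 4 and 27.7 and 48.8 CPM in replicates 1 and 2, so that replicate 4 had the highest and replicate 3 the lowest sum of each of these 3 lists. The list of cerebellar granule cells, 7 of 7 at 1 CPM or more throughout, summed to 183 and 312 CPM in replicates 3 and 4 and 627 and 1475 CPM in replicates 1 and 2. That of Purkinje cells and Bergmann glia, 5 of 6, summed to 723 and 681 CPM in replicates 3 and 4 and 1453 and 2487 CPM in replicates 1 and 2, and both were highest in replicate 2. Endothelial and mural markers, 4 of 6, summed to 198 to 262 CPM with Cldn5 at 0 in replicate 4, and microglia markers, 1 of 7, to 3.73 to 43.2 CPM with Aif1, C1qa and Tmem119 at 0 in 2 libraries each. In RNA from a tissue, fewer cells of a type and less RNA per cell cannot be told apart, and the part that these other cells have in the levels given here was not tested.

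Of the 39 genes, 35 (89.7%) had 1 CPM or more in all 4 libraries, 28 had 10 CPM or more and 7 had 100 CPM or more, where 33.5% of all shared gene rows reached 1 CPM throughout. The relatives Slitrk6, Il1rapl2, C1ql4 and Nlgn4l are not among the 39, so this share and the family sums below leave them out. Slitrk6 reached 1 CPM in all 4 libraries and Il1rapl2 in 2, while C1ql4 had 0 counts and Nlgn4l no row. To compare genes, CPM was divided by the kilobases of merged exon of each gene (CPM per kb), and levels with ± are means and SD over the 4 libraries. Positions are those of GRCm38 (mm10). The median of log2(CPM per kb + 0.5) was 2.99 over the 39 genes and 3.41 over the 35 with 1 CPM or more throughout. It was 2.70 over the 10131 genes with a length and 1 CPM or more throughout, and 22 of the 39 stood above 2.70. The order from the top was Clstn1, Cadm3, Lrrtm2, Slitrk1, Nlgn2, Cadm2 and Lrrtm3, and from the bottom C1ql2, Il1rap, Lrfn2, C1ql1 and Il1rapl1. Of the 38 pairs of neighbours in the whole order, Cadm3 over Lrrtm2 was the only one with 1 direction in 4 of 4 libraries and a mean log2 ratio above 2 SD (0.72 ± 0.35), so the order is one of groups of genes rather than of single ranks. Its top also depends on the length used. By the longest annotated transcript, the mean log2(CPM per kb + 0.5) of Cadm3 (6.20) stood above that of Clstn1 (5.84). By coding length, Cadm3 (8.19), Cadm2 (7.45) and Lrrtm2 (6.94) stood above Clstn1 (6.44).

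**Figure D1:**
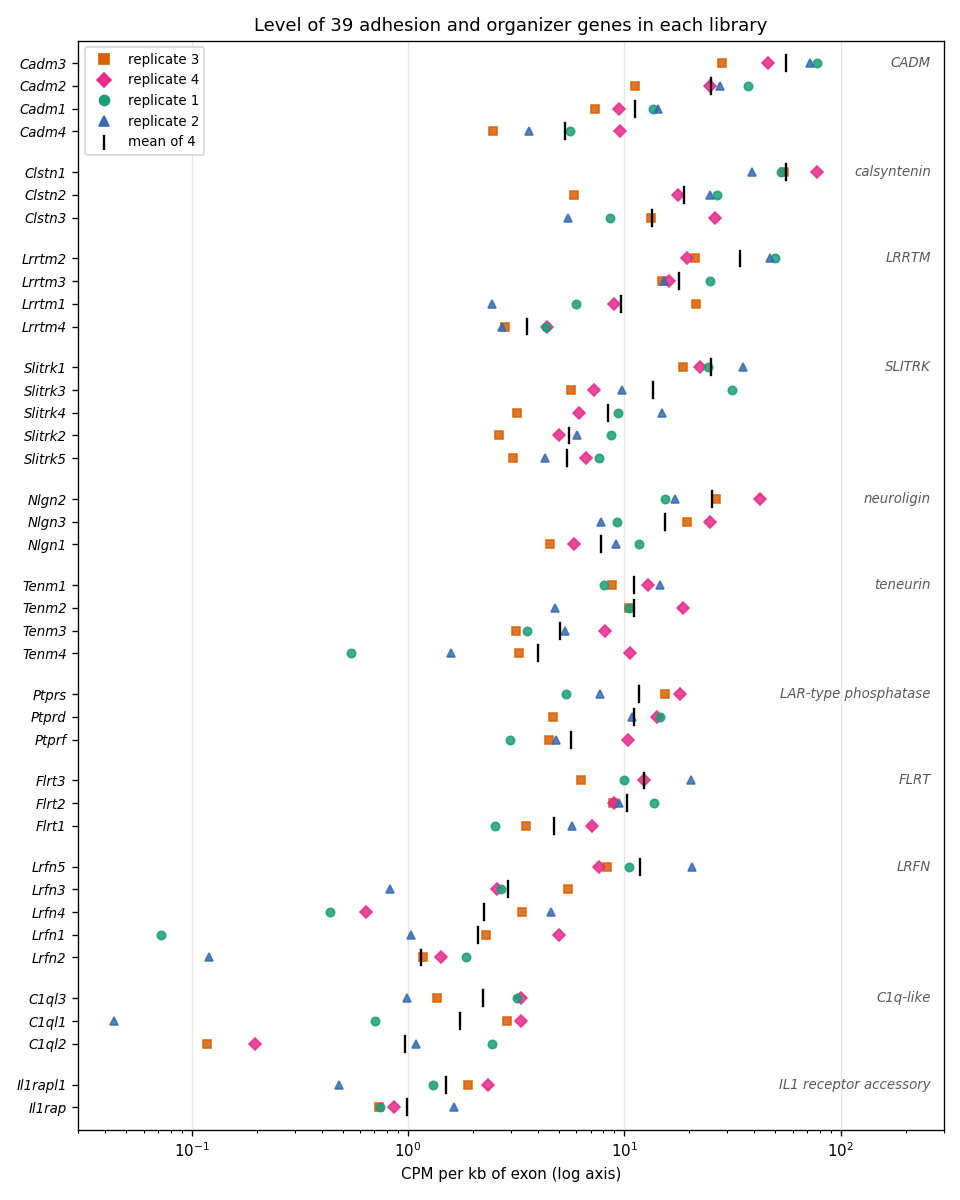
Level of each of the 39 genes in each library, as CPM per kb of exon on a log axis, with genes grouped by family and ordered within it by mean. Each symbol is 1 library and the vertical bar is the mean of 4; the CADM, calsyntenin and LRRTM genes reach the highest levels, and the summed levels are lowest in the C1q-like and IL-1 receptor accessory families.

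CADM genes gave the highest summed level of the families, 97.9 ± 37.1 CPM per kb. They encode immunoglobulin-domain proteins, also called SynCAM or nectin-like proteins, that bind one another across the synapse. Cadm3 (chromosome 1, 173333258 to 173367695, minus strand) led the family in 4 of 4 libraries with 56.9 ± 4.21% of its summed level per kb. Its counts came to 204 and 335 CPM in replicates 3 and 4 and 562 and 525 CPM in replicates 1 and 2, a level of 56.1 ± 23.1 CPM per kb, and every value in replicates 3 and 4 lay below those in replicates 1 and 2. Cadm2 had 111 and 246 CPM in replicates 3 and 4 and 365 and 272 CPM in replicates 1 and 2, which is 25.3 ± 10.7 CPM per kb. Cadm1, at 11.2 ± 3.31 CPM per kb, was below Cadm2 in each library and ran from 76.7 to 149 CPM. Cadm4 (chromosome 7, 24482023 to 24504539, plus strand), a member also known from myelinating glia, was lowest with 5.34 and 20.6 CPM in replicates 3 and 4 and 12.2 and 7.84 CPM in replicates 1 and 2, a level of 5.31 ± 3.09 CPM per kb. Its highest library, replicate 4, also had the highest sums of astrocyte, oligodendrocyte and precursor markers, whose part in this level was not tested.

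Cadm3, Cadm2 and Cadm1 kept this order in each library. Within a library the log2 ratio of Cadm3 over Cadm4 was 3.33 ± 0.82, with 3.27 and 2.22 in replicates 3 and 4 and 3.67 and 4.14 in replicates 1 and 2. Cadm3 over Cadm1 averaged 2.22 ± 0.25 and Cadm3 over Cadm2 1.14 ± 0.23, so that the spread between libraries was small beside both ratios. Cadm2 over Cadm1 averaged 1.07 ± 0.39 by merged exon but 0.01 by the longest annotated transcript of each gene, so the rank of this pair depends on the length used.

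Clstn1 and Cadm3 stood at the top of the merged-exon order, and Cadm3 and Cadm4 set the widest range within a family. Cadm2, a further CADM gene, is shown beside them. The 250 bases before the starts of Clstn1, Cadm3, Cadm2 and Cadm4 are printed here. They are RefSeq promoter entries of GRCm38.p6, read 5′ to 3′ on the gene's strand, and capitals mark motif matches on either strand, with overlapping matches merged. The motifs were the GC box spelled GGGCGG, the CCAAT box as its name is spelled, the E box spelled CACGTG and the TATA box spelled TATAAA. Cadm3 (chr1:173367696-173367945, minus strand), Cadm2 (chr16:67620909-67621158, minus strand), Cadm4 (chr7:24481773-24482022, plus strand) and Clstn1 (chr4:149586218-149586467, plus strand) read as follows.
Cadm3: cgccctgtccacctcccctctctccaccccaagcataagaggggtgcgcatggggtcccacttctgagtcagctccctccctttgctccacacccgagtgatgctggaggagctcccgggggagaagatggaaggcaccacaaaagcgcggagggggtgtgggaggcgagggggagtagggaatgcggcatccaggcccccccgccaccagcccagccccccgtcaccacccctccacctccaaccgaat
Cadm2: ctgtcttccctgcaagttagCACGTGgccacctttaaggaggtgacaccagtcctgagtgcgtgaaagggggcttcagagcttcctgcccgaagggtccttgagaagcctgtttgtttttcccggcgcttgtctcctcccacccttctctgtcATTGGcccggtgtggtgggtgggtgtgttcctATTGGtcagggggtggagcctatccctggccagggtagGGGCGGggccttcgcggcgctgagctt
Cadm4: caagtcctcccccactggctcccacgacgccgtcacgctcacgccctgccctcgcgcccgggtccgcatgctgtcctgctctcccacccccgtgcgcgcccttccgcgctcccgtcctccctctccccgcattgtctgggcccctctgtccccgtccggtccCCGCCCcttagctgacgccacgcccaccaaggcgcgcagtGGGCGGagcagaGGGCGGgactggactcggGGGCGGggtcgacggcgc
Clstn1: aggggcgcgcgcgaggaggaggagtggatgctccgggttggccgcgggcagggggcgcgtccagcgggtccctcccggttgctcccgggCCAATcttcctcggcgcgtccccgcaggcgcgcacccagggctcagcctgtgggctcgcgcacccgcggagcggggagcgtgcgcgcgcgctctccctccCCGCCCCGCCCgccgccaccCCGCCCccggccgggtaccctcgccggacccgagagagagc
Cadm3, the CADM gene with the highest level, had none of these motifs in this window, with 66.8% G or C and 11 CpG. Cadm2 had 1 GC box, 2 CCAAT matches and 1 E box, with 60.8% G or C and 10 CpG. Cadm4, the lowest of the family, had 4 GC boxes, 75.2% G or C and 30 CpG, and Clstn1 had 3 GC boxes, 1 CCAAT match, 80% G or C and 38 CpG. The median of all 32851 mouse entries was 52.4% G or C and 6 CpG. Entries existed for 30 of the 39 genes, 36 in all. GC boxes were in 12 of these 36 (33.3%) and in 32.7% of all entries, CCAAT in 8 (22.2%) and 33.8%, CACGTG in 4 (11.1%) and 6.02%, and TATAAA in 2 (5.56%) and 12.4%. These matches describe letters in a window and not binding.

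The calsyntenins summed to 88.3 ± 23.8 CPM per kb, and Clstn1 (chromosome 4, 149586468 to 149648899, plus strand), whose product links kinesin motors to axonal cargo, made up 63.5 ± 7.79% of it. Clstn1 had 256 and 364 CPM in replicates 3 and 4 and 246 and 181 CPM in replicates 1 and 2. At 56.1 ± 16.2 CPM per kb of merged exon, it had the highest mean level of all 39 genes by that length. It led its family in 4 of 4 libraries. It was also among the 5 genes with the smallest spread between libraries of those at 1 CPM or more throughout (SD of log2(CPM + 0.5) of 0.41). Clstn2 had 33.2 and 101 CPM in replicates 3 and 4 and 153 and 142 CPM in replicates 1 and 2, with replicate 3 the lowest. Clstn3 (chromosome 6, 124430759 to 124464794, minus strand), which encodes a calsyntenin known to promote synapse formation, had 65.9 and 130.2 CPM in replicates 3 and 4 and 42.5 and 27.4 CPM in replicates 1 and 2, or 13.4 ± 9.12 CPM per kb. The log2 ratio of Clstn1 over Clstn3 was 2.21 ± 0.53. Clstn2 stood above Clstn3 in replicates 1 and 2 and below it in replicates 3 and 4, with log2 ratios of -1.12 and -0.55 in replicates 3 and 4 and 1.60 and 2.08 in replicates 1 and 2.

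LRRTM genes, which encode leucine-rich postsynaptic proteins of excitatory synapses, summed to 65.5 ± 15.1 CPM per kb. Lrrtm2, a neurexin ligand, had 127 and 118 CPM in replicates 3 and 4 and 300.2 and 284 CPM in replicates 1 and 2, or 34.4 ± 16.3 CPM per kb, and its values did not overlap between the pairs of libraries. Lrrtm3 was steadier, with 63.9 and 68.8 CPM in replicates 3 and 4 and 106 and 64.9 CPM in replicates 1 and 2. Lrrtm1 is the other well known neurexin ligand of the family. It had 64.9 and 27.2 CPM in replicates 3 and 4 and 18.1 and 7.39 CPM in replicates 1 and 2. By merged exon Lrrtm1 and Lrrtm2 were nearly level at the top in replicate 3, with a log2 ratio of Lrrtm2 over Lrrtm1 of -0.0147. Lrrtm2 led in the other 3 libraries. By the longest annotated transcript and by coding length, Lrrtm2 led in replicate 3 too. Lrrtm4 (chromosome 6, 80018877 to 80810143, plus strand), whose product binds heparan sulfate proteoglycans such as glypicans, had 17.4 and 27.03 CPM in replicates 3 and 4 and 26.6 and 16.7 CPM in replicates 1 and 2 and was lowest with 3.57 ± 0.921 CPM per kb. Lrrtm2 over Lrrtm4 had a log2 ratio of 3.002 ± 0.81 and Lrrtm3 over Lrrtm4 of 2.17 ± 0.28. Lrrtm1, Lrrtm2 and Lrrtm3 lie within Ctnna2, Ctnna1 and Ctnna3 on the opposite strand, and it is not stated whether the authors' counting used strand, so their reads and those of the host genes may not be fully separated. In Lrrtm4, 25.1% of the merged exon overlaps exons of another annotated gene.

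Neuroligins, the postsynaptic neurexin receptors, summed to 48.6 ± 17.9 CPM per kb. Nlgn2 (chromosome 11, 69823122 to 69837784, minus strand), the neuroligin of inhibitory synapses, led in 4 of 4 libraries by merged exon. It made up 50.8 ± 6.44% of the sum. Its values were 153 and 245 CPM in replicates 3 and 4 and 89.4 and 99.2 CPM in replicates 1 and 2, and those of replicates 3 and 4 were both higher. Nlgn3, found at excitatory and inhibitory synapses, had 179.9 and 231 CPM in replicates 3 and 4 and 86.1 and 72.7 CPM in replicates 1 and 2, also without overlap. Nlgn1 (chromosome 3, 25426215 to 26332460, minus strand), the neuroligin of excitatory synapses, had 60.9 and 78.9 CPM in replicates 3 and 4 and 157 and 123 CPM in replicates 1 and 2, in the opposite direction. Nlgn2 over Nlgn3 had a log2 ratio of 0.75 ± 0.26 by merged exon but 0.10 by coding length. By merged exon, Nlgn2 over Nlgn1 had the same direction in 4 of 4 libraries but a mean under 2 SD (1.61 ± 1.16). The coding lengths are nearly equal, at 2529, 2508 and 2535 bases for Nlgn1, Nlgn2 and Nlgn3. By coding length Nlgn1 was highest in replicates 1 and 2, Nlgn3 in replicate 3 and Nlgn2 in replicate 4. The order of Nlgn3 and Nlgn1 turned between the pairs, with log2 ratios of Nlgn3 over Nlgn1 of 1.98 and 1.99 in replicates 3 and 4 and -0.32 and -0.22 in replicates 1 and 2. For Nlgn3, 41.2% of the merged exon overlaps an annotated gene on the same strand, Gm21986, so its counts are uncertain.

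**Figure D2:**
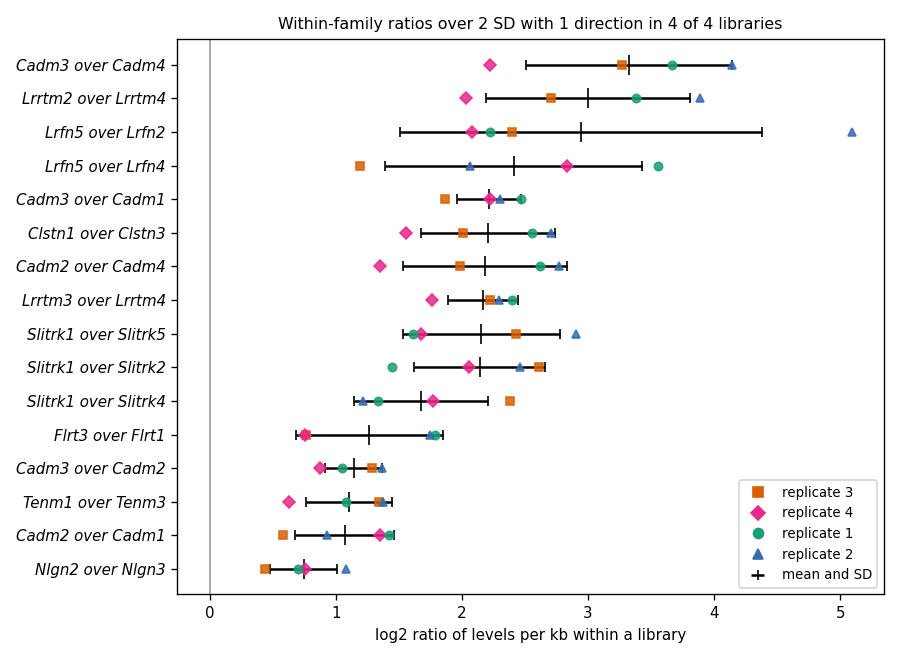
Log2 ratios of levels per kb between members of a family within a library, for the 16 of 54 pairs with 1 direction in 4 of 4 libraries and a mean over 2 SD. Each symbol is 1 library, and the black bar and line give mean and SD; the means run from 0.75 for Nlgn2 over Nlgn3 to 3.33 for Cadm3 over Cadm4.

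Across the 11 families, 54 within-family pairs were compared; 30 had 1 direction in 4 of 4 libraries and 16 of those a mean over 2 SD. With 4 libraries the smallest two-sided exact sign-flip p is 0.125 (n = 4), or 0.225 adjusted over the 54 pairs by Benjamini-Hochberg, so no pair can pass 0.05 and the ratios are described by size and spread. Of the 16 pairs, 14 to 15 kept their direction and a mean over 2 SD when any 1 library was left out. The mean was no longer over 2 SD for Lrfn5 over Lrfn2 without replicate 1 or 3, for Lrfn5 over Lrfn4 without replicate 4, and for Flrt3 over Flrt1 without replicate 1 or 2.

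The SLITRK genes, postsynaptic leucine-rich ligands of these phosphatases, summed to 58.2 ± 21.9 CPM per kb. Slitrk1 (chromosome 14, 108908800 to 108914158, minus strand) had 100.2 and 119.7 CPM in replicates 3 and 4 and 131 and 190.3 CPM in replicates 1 and 2, or 25.2 ± 7.24 CPM per kb, and exceeded Slitrk5, Slitrk2 and Slitrk4 in 4 of 4 libraries. The log2 ratios were 2.16 ± 0.62 over Slitrk5, 2.14 ± 0.52 over Slitrk2 and 1.68 ± 0.53 over Slitrk4. Slitrk3, known from inhibitory synapses, had 27.4 and 35.1 CPM in replicates 3 and 4 and 153 and 47.2 CPM in replicates 1 and 2. Replicate 1 stood apart at the top, and Slitrk3 led the family there by merged exon. By coding length Slitrk1 led in replicate 1. Slitrk4 had 27.8 and 53.996 CPM in replicates 3 and 4 and 82.2 and 131 CPM in replicates 1 and 2, highest in replicate 2, and Slitrk5 (chromosome 14, 111675097 to 111683141, plus strand), the lowest per kb, had 16.1 and 34.996 CPM in replicates 3 and 4 and 40.3 and 22.7 CPM in replicates 1 and 2. Slitrk2 ran from 21.4 to 69.8 CPM. All but Slitrk5 had lower values in replicates 3 and 4 than in replicates 1 and 2, without overlap, as did 23.8% of all genes tested.

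The phosphatases themselves summed to 28.4 ± 9.51 CPM per kb, and the top value was in replicate 4. Ptprs (chromosome 17, 56412426 to 56476483, minus strand) had 232 and 270.0 CPM in replicates 3 and 4 and 80.4 and 116 CPM in replicates 1 and 2, which is 11.6 ± 6.05 CPM per kb. Ptprd, which extends over 2270.7 kb of genome, had 107 and 325 CPM in replicates 3 and 4 and 334 and 249 CPM in replicates 1 and 2, or 11.1 ± 4.61 CPM per kb, lowest in replicate 3. Ptprf (chromosome 4, 118208213 to 118291405, minus strand) was lowest with 40.9 and 95.5 CPM in replicates 3 and 4 and 27.1 and 44.4 CPM in replicates 1 and 2. By merged exon, Ptprd exceeded Ptprs in replicates 1 and 2 and Ptprs exceeded Ptprd in replicates 3 and 4. The log2 ratios of Ptprs over Ptprd were 1.63 and 0.33 in replicates 3 and 4 and -1.37 and -0.47 in replicates 1 and 2. By coding length, 5736 bases for Ptprd and 5721 for Ptprs, Ptprd was higher in replicate 4 too. Il1rapl1, whose product is a postsynaptic PTPδ ligand, had 17.7 and 21.9 CPM in replicates 3 and 4 and 12.3 and 4.50 CPM in replicates 1 and 2, and Il1rap, the shared co-receptor of IL-1 family cytokines, 8.33 and 9.79 CPM in replicates 3 and 4 and 8.47 and 18.5 CPM in replicates 1 and 2. Together the pair summed to 2.50 ± 0.538 CPM per kb, the smallest sum of the families.

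LRFN genes, the SALM proteins of the postsynaptic side, summed to 20.2 ± 5.14 CPM per kb, of which Lrfn5 (chromosome 12, 61523150 to 61858342, plus strand) made up 57.02 ± 17.4%. Lrfn5, a LAR-type phosphatase ligand, had 79.8 and 72.9 CPM in replicates 3 and 4 and 100.3 and 197 CPM in replicates 1 and 2 and led in 4 of 4 libraries. The other 4 were low and irregular. Lrfn1 had 9.03 and 19.5 CPM in replicates 3 and 4 and 0.284 and 4.05 CPM in replicates 1 and 2, resting on 6 counts in replicate 1. Lrfn2 (chromosome 17, 48932379 to 49097588, plus strand) had 3.77 and 4.57 CPM in replicates 3 and 4 and 5.96 and 0.386 CPM in replicates 1 and 2, with 6 counts in replicate 2. Lrfn4 had 11.4 and 2.15 CPM in replicates 3 and 4 and 1.47 and 15.4 CPM in replicates 1 and 2, high in replicates 2 and 3 and low in replicates 1 and 4. Lrfn3 had 15.9 and 7.44 CPM in replicates 3 and 4 and 7.76 and 2.38 CPM in replicates 1 and 2, highest in replicate 3. Lrfn5 over Lrfn2 had a log2 ratio of 2.95 ± 1.44 and Lrfn5 over Lrfn4 of 2.41 ± 1.02. Lrfn1 lies within Samd4b and Lrfn4 within Pcx, each on the opposite strand, with the same limit of strand.

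Teneurins, large transmembrane ligands of latrophilins, summed to 31.3 ± 12.9 CPM per kb. Tenm1 (chromosome X, 42527866 to 43429126, minus strand) had 155 and 229 CPM in replicates 3 and 4 and 143 and 258 CPM in replicates 1 and 2, or 11.1 ± 3.15 CPM per kb, and Tenm2 had 120.2 and 215 CPM in replicates 3 and 4 and 121 and 55.2 CPM in replicates 1 and 2, or 11.1 ± 5.74 CPM per kb. By merged exon, the mean levels of this pair differed by less than their spread. Tenm1 led in replicate 2 and Tenm2 in the other 3 by that length. By coding length Tenm1 led in each library, with a mean log2(CPM per kb + 0.5) of 4.57 beside 3.85 for Tenm2. Tenm3 ran from 32.3 to 83.5 CPM, and Tenm1 over Tenm3 had a log2 ratio of 1.11 ± 0.34. Tenm4 (chromosome 7, 96171246 to 96911093, plus strand), which in mice is also known for a role in oligodendrocyte differentiation, had 68.6 and 224 CPM in replicates 3 and 4 and 11.4 and 33.4 CPM in replicates 1 and 2. Replicate 4 was far above the others, replicate 1 far below, and the SD of log2(CPM + 0.5), 1.78, was the largest of the genes at 1 CPM or more throughout.

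FLRT genes, leucine-rich ligands of latrophilins and UNC5 receptors, summed to 27.3 ± 6.95 CPM per kb. Flrt3 (chromosome 2, 140650914 to 140671469, minus strand) had 30.9 and 60.3 CPM in replicates 3 and 4 and 48.5 and 99.5 CPM in replicates 1 and 2, highest in replicate 2. Flrt2 had 68.7 and 68.9 CPM in replicates 3 and 4 and 106 and 73.2 CPM in replicates 1 and 2, the smallest spread of the genes at 1 CPM or more throughout (SD of 0.30 on the log2 scale), although replicate 1 was above the rest. Flrt1 (chromosome 19, 7092001 to 7105729, minus strand) was lowest with 20.7 and 41.9 CPM in replicates 3 and 4 and 14.9 and 33.7 CPM in replicates 1 and 2. By merged exon Flrt3 led in replicates 2 and 4 and Flrt2 in replicates 1 and 3, while by coding length Flrt2 led in replicate 4 too. Flrt3 over Flrt1 had a log2 ratio of 1.27 ± 0.58 by merged exon. Flrt1 and Flrt3 lie within Macrod1 and Macrod2 on the opposite strand.

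C1q-like genes, secreted ligands of BAI3, were low and summed to 4.92 ± 2.15 CPM per kb. C1ql3 (chromosome 2, 13003457 to 13011806, minus strand) had 3.46 and 8.42 CPM in replicates 3 and 4 and 8.09 and 2.51 CPM in replicates 1 and 2, but 64.2% of its merged exon overlaps annotated genes on the opposite strand. C1ql1, known as the ligand that climbing fibres bring to Purkinje cells, had 4.24 and 4.90 CPM in replicates 3 and 4 and 1.04 and 0.0643 CPM in replicates 1 and 2, where the lowest is 1 count. C1ql2 (chromosome 1, 120340582 to 120343174, plus strand) had 0.236 and 0.392 CPM in replicates 3 and 4 and 4.92 and 2.19 CPM in replicates 1 and 2, and the values of replicates 3 and 4 are 3 and 6 counts. At 3 counts, the floor was 0.142 to 0.236 CPM, so no fold between libraries is given for C1ql1 or C1ql2.

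How much the 39 genes differ between libraries was compared with other genes. The median SD of log2(CPM + 0.5) over the 4 libraries was 0.75 for the 39 and 0.80 for the 13905 genes tested. The most even genes of those at 1 CPM or more throughout were Flrt2, Lrrtm3, Lrrtm4, Slitrk1 and Clstn1, with SDs of 0.30, 0.35, 0.37, 0.39 and 0.41. The least even were Tenm4, Lrfn4, Lrrtm1, Slitrk3 and Lrfn3, with SDs of 1.78, 1.51, 1.27, 1.09 and 1.03. Among genes with 10 CPM or more in all libraries, the median SD was 0.685 for 28 of the 39 and 0.532 for all 6437 such genes tested.

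The library numbers fall into adjacent pairs, which the labels do not explain, and replicates 3 and 4 were tested against replicates 1 and 2 with edgeR's quasi-likelihood test over all genes. None of the 39 genes had an adjusted p under 0.05 in edgeR, where 1.27% of the 13905 genes tested did, 0.712% higher and 0.554% lower in replicates 3 and 4. At an unadjusted p under 0.05 there were 14 of the 39 (35.9%), 6 higher and 8 lower in replicates 3 and 4, against 16.8% of all genes. Values of the pairs did not overlap for 23 of the 39, with 10 higher and 13 lower in replicates 3 and 4, and for 47.5% of all genes, 23.7% higher and 23.8% lower. DESeq2 on the same counts and at the same adjusted threshold called 8 of the 39 and 9.23% of all genes tested. The 8 were Tenm4, Nlgn3, Ptprs and Clstn3 as higher and Lrrtm2, Slitrk3, Slitrk4 and Cadm3 as lower. With 1 library left out, edgeR called 3 of the 39 and 4.6% of all genes without replicate 1, and 4 of the 39 and 4.29% of all genes without replicate 2. It called 1 of the 39 and 2.74% of all genes without replicate 3, and 1 of the 39 and 2.59% without replicate 4.

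Tenm4 had the largest of these differences among genes at 1 CPM or more throughout, a log2 difference of 2.66 (SE 0.63), 95% interval 1.297 to 4.02, with an edgeR adjusted p of 0.0614. Without replicate 4, Tenm4 had a log2 difference of 1.73, and without replicate 1, 2 or 3 one of 2.06, 3.66 and 3.21. Replicate 4 also held the highest sums of astrocyte, oligodendrocyte and precursor markers, and the part of glial RNA in the Tenm4 value was not tested. Nlgn3 differed by 1.38 (SE 0.36) and Ptprs by 1.36 (SE 0.36) on the log2 scale, with edgeR adjusted p of 0.0806 and 0.0826. In the other direction, Lrrtm2 differed by -1.23 (SE 0.34) and Cadm3 by -1.02 (SE 0.32), with edgeR adjusted p of 0.0880 and 0.134. Nlgn2 (log2 1.07, SE 0.37), Clstn3 (1.47, SE 0.49) and Lrrtm1 (1.92, SE 0.73) were positive, and Slitrk3 (-1.66, SE 0.56), Slitrk4 (-1.40, SE 0.48) and Nlgn1 (-0.997, SE 0.39) negative. None of these 6 passed, their adjusted p running from 0.148 to 0.209 in edgeR. Leaving out 1 library moved several of these values in either direction. Slitrk3 was at -2.25 on the log2 scale without replicate 2 and at -0.62 without replicate 1. Lrrtm1 was at 2.67 without replicate 1 and at 0.999 without replicate 3. Clstn2 was at -2.02 without replicate 4 and at -0.65 without replicate 3, beside -1.17 with all libraries. Ptprs was at 1.68 without replicate 2. Lrfn1 was at 5.62 without replicate 2, which sets replicates 3 and 4 against 6 counts of Lrfn1 in replicate 1. Slitrk4 was at -1.73 without replicate 1, at -1.09 without replicate 3 and at -0.995 without replicate 2.

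**Figure D3:**
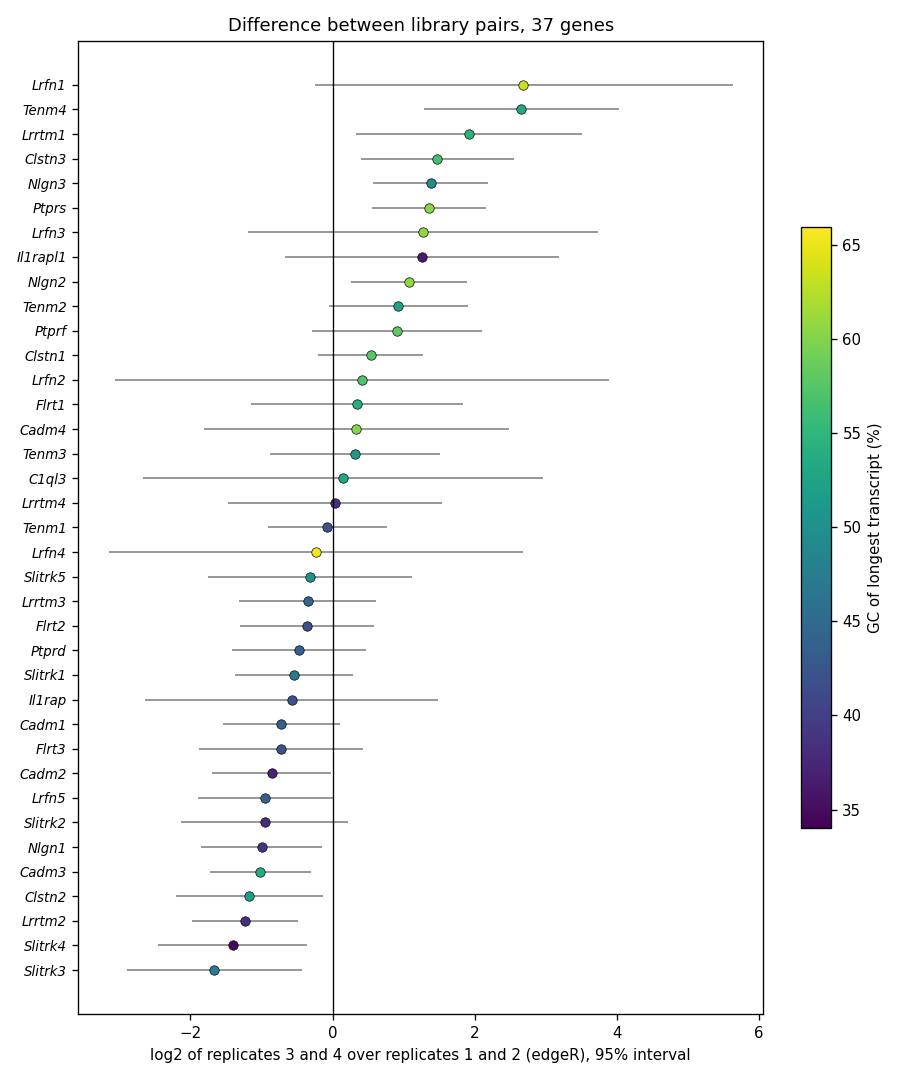
Log2 difference of replicates 3 and 4 over replicates 1 and 2 for 37 genes, with 95% intervals from edgeR and colour giving the GC content of the longest transcript. C1ql1 and C1ql2, with 3 counts or fewer in a library, are left out; most genes at the top have high and most at the bottom low GC, and Il1rapl1 is an exception.

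The base composition of the transcripts moved with the direction of the difference. Of 21 genes with 50% or more G and C in the longest transcript, 16 were higher and 5 lower in replicates 3 and 4, with a median log2 difference of 0.54. Of 18 with less, 3 were higher and 15 lower, with a median of -0.65. Over all tested genes, 3981 of 6041 with 50% or more were higher (median 0.49) and 4483 of 6823 with less were lower (median -0.34). As a description across genes, which are not independent, Pearson's r of GC and log2 difference was 0.445 over the 39 genes, 0.668 over the 28 with 10 CPM or more throughout, and 0.434 over the 6212 such genes of the whole table with a GC value. Depth and library preparation are shared by all points of a library.

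A fit with a smooth GC term for each library was restricted to genes that reach 1 CPM in each library, which leaves 35 of the 39, so it is set beside a fit with that filter alone. With the filter alone edgeR called 4 of these, Tenm4, Nlgn3, Ptprs and Lrrtm2, and 4.96% of the 10643 genes tested. With the GC term it called 3, Tenm4, Nlgn3 and Cadm3, and 1.6% of the 10142 genes tested. Tenm4 had a log2 difference of 2.39 with the GC term (edgeR adjusted p 0.0211) and 2.71 with the filter alone (edgeR adjusted p 0.00813). Nlgn3 had 1.55 with the GC term (edgeR adjusted p 0.0287) and 1.42 with the filter alone (edgeR adjusted p 0.0292). Cadm3 was at -1.34 with the GC term (edgeR adjusted p 0.0353) and at -0.97 with the filter alone (edgeR adjusted p 0.0936). Ptprs was at 0.22 with the term and 1.41 without it, Lrrtm2 at -0.81 and -1.19, and Nlgn2 at -0.11 and 1.12, and none of these passed with the term.

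**Figure D4:**
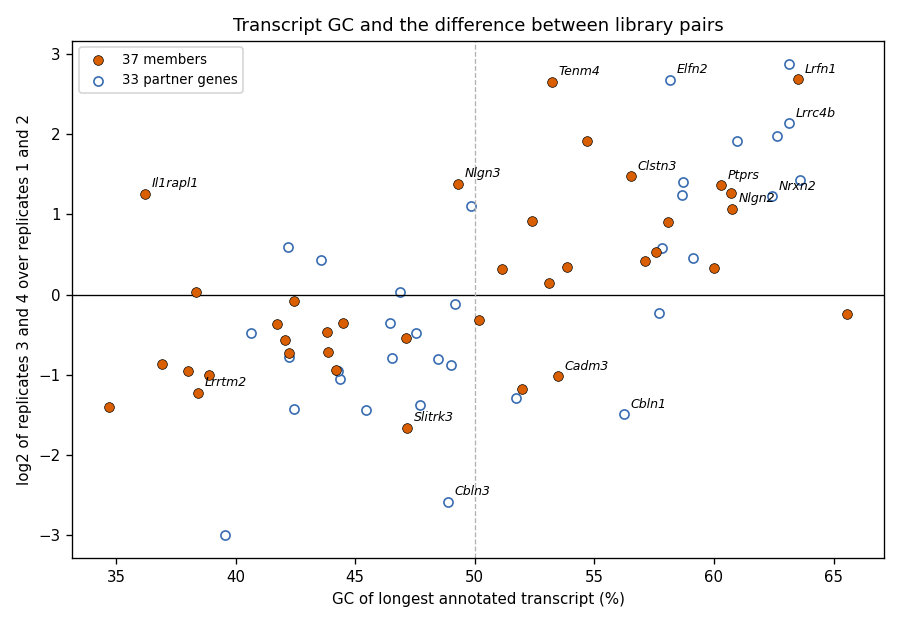
GC content of the longest transcript against the log2 difference of replicates 3 and 4 over replicates 1 and 2, for 37 members (filled) and 33 partner genes (open); genes with 3 counts or fewer in a library are left out. Points to the right of the dashed line at 50% lie mostly above 0 and points to its left mostly below.

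The genes of binding partners and further organizers were looked at beside the members. Of 38 listed, 37 had a row, and 33 had 1 CPM or more in all 4 libraries. C1ql4 had 0 counts in each library, which allows up to 0.142 to 0.236 CPM, and Gpc4, Ntng2 and Il1rapl2 fell under 1 CPM in at least 1. Of the neurexins, Nrxn3 had 260.0 and 513 CPM in replicates 3 and 4 and 519 and 546 CPM in replicates 1 and 2. Nrxn2 had 142 and 153 CPM in replicates 3 and 4 and 67.1 and 60.9 CPM in replicates 1 and 2, and its values did not overlap between the pairs. Cbln2, the gene whose driver marks the line, had 126 and 65.7 CPM in replicates 3 and 4 and 239 and 109.9 CPM in replicates 1 and 2, so that it was present in each library, which says nothing of enrichment. Of the cerebellins also made by cerebellar granule cells, Cbln1 had 458 and 400.3 CPM in replicates 3 and 4 and 1397 and 1066 CPM in replicates 1 and 2. Cbln3 had 26.6 and 49.9 CPM in replicates 3 and 4 and 156 and 295 CPM in replicates 1 and 2. It is itself a marker in the granule list, so its values are part of that list's sums. The granule and Purkinje lists, given above, had their highest sums in replicate 2, although Calb1 of the Purkinje list was highest in replicate 3 and Pcp2 in replicate 4, and Itpr1 and Car8 made up most of its sum. Of the 39 genes, Slitrk1, Slitrk4, Flrt3, Lrfn4, Lrfn5, Tenm1, Cadm1 and Il1rap were highest in replicate 2, and the others in replicates 1, 3 or 4. The share of all genes highest in replicate 2 was not computed, so this list sets those genes apart from no background. The part of such cells in these levels was not tested.

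Between the pairs of libraries, 5 of the 36 partner genes tested passed in edgeR, 2 higher and 3 lower in replicates 3 and 4, beside 1.27% of all genes, 0.712% higher and 0.554% lower. Of the 5, 4 are described here. Elfn2, whose product binds group III metabotropic glutamate receptors across the synapse, was higher in replicates 3 and 4 (log2 2.68, SE 0.41, adjusted p 0.0127), with 189 and 168 CPM in replicates 3 and 4 and 29.8 and 26.9 CPM in replicates 1 and 2. Lrrc4b, whose product NGL-3 binds LAR-type phosphatases, was higher too (log2 2.14, SE 0.40, edgeR adjusted p 0.0278), with 147 and 169 CPM in replicates 3 and 4 and 34.96 and 37.5 CPM in replicates 1 and 2. Cbln1 (log2 -1.49, SE 0.31, edgeR adjusted p 0.0386) and Cbln3 (-2.58, SE 0.46, edgeR adjusted p 0.0238) were lower. With the GC term, Lrrc4b (log2 0.85, edgeR adjusted p 0.331) no longer passed. With no scaling beyond the library total, Cbln1 had an edgeR adjusted p of 0.0539. Of the latrophilins, which bind teneurins and FLRT proteins, Adgrl1 had 272 and 220.2 CPM in replicates 3 and 4 and 216 and 150.0 CPM in replicates 1 and 2. Adgrl3 had 154 and 187 CPM in replicates 3 and 4 and 198 and 239 CPM in replicates 1 and 2, and neither passed.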

How the data were processed

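Read counts per gene symbol were deposited by the authors for 4 TRAP IP libraries of 1 group, without normalization; per the submitters' processing notes, STAR 2.0.0e, HTSeq and mm10 were used. The annotation, strand setting and counting options are not given in the sources used here. HTSeq's summary rows were left out (no feature 24.0% to 30.1% of a library, not unique 28.6% to 37.2%, ambiguous 1.25% to 2.07%), and CPM was taken over all other rows. Levels per kb used merged exons of GENCODE's annotation of GRCm38 and log2(CPM per kb + 0.5). Within-family log2 ratios were tested by an exact sign-flip test (two-sided). Replicates 3 and 4 were set against replicates 1 and 2 with edgeR 4.0.16 (R 4.3.3, quasi-likelihood test, TMM, filterByExpr, Benjamini-Hochberg 0.05), with DESeq2 1.42.0 as an alternative. The edgeR fit was first run on simulated counts, where a pass was required at a dispersion of 0.05 and not at the observed dispersion. It therefore gives no detection rate for these data. Alternatives also covered scaling, filters, pseudocounts, lengths and leaving out each library, and the GC term (loess, span 0.5, genes reaching 1 CPM in each library) was added after seeing the data.

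The 39 genes, the partner list and the marker lists were chosen with earlier results of these data known. Values in every library were given for genes called between the pairs, the highest and lowest gene of each family per kb, the 5 most and 5 least even genes of those at 1 CPM or more throughout, and genes not at 1 CPM throughout. A few others (Cadm2, Clstn2, Nlgn3, Slitrk4, Ptprd, Tenm2, Il1rapl1, Lrrtm1 and the partners Adgrl1 and Adgrl3 among them) were added after their values were seen, where a statement on a family's order or on a latrophilin turned on them. Depth limits precision to about 1 count, 0.0473 to 0.0785 CPM, and floors of 3 counts cover counting error only. The library titled replicate 4 carries a description ending in another replicate's label; the title was followed. The result of 1 partner gene is not reported here.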

Additional observations from a re-analysis of the deposited data

Results flagged for a closer look

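In 11 of 103 values checked, the highest or lowest of the 4 libraries stood apart from the other 3 by a gap above Dixon's 95% limit for 4 samples. That limit assumes normal values, while most values here were untransformed CPM, and the ratios and sums reuse the same genes. The share over all genes was not computed, so 11 of 103 is no measure of an excess. Among the adhesion genes, Lrrtm3 (106 CPM), Slitrk3 (153 CPM) and Flrt2 (106 CPM) were highest in replicate 1, and Il1rap (18.5 CPM) in replicate 2. Among partner genes, Cbln4 was highest in replicate 1 (106 CPM) and Mdga2 in replicate 4 (119 CPM), while Nrxn3 was lowest in replicate 3 (260.0 CPM) and Elfn1 in replicate 4 (81.0 CPM). The log2 ratio of Lrfn5 over Lrfn2 was highest in replicate 2 (5.09), where Lrfn2 rests on 6 counts. The summed levels of the teneurins (50.4 CPM per kb) and of the LAR-type phosphatases (42.7 CPM per kb) were highest in replicate 4.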

How the results depend on the processing

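The count of the 39 genes called between library pairs, 0 in edgeR, was 5 with no filter beyond 1 count, 4 with a filter of 1 CPM in all 4 libraries, 3 with that filter and the GC term together, and 8 with DESeq2, and 1 to 4 with 1 library left out; it was 0 with DESeq2 size factors, with no scaling and without the 20 most abundant rows. Genes called over the whole table, 176, were 77 with no scaling, 875 with no filter, 528 with the 1 CPM filter and 1283 with DESeq2, and 389 to 699 with 1 library left out. Leaving out replicate 1, 2, 3 or 4 put the median log2 difference of all genes at 0.19, 0.13, -0.11 and -0.16, so single differences there are relative to that shift. Nlgn2 between the pairs was at -0.11 with the GC term and at 1.12 with its filter alone. The median level, 2.99, was 4.17 by coding length, a shorter length for these genes. The median SD, 0.75, was 0.71 with TMM scaling and 0.71 to 0.74 with 1 library left out. Ratios over 2 SD in 1 direction, 16, were 15 to 21 under the alternatives, and none of the 16 reversed. Genes at the detection limit throughout, 35, were 31 at 5 CPM and 35 to 37 with 1 library left out. The cause was not tested where none is named. No paired analysis was possible because all libraries form 1 group. With 4 libraries, small differences between genes of near level were not detectable, and the C1q-like, Lrfn1 and Lrfn2 values rest on few counts.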
